A study of Drosophila melanogaster with 20 samples.

Results

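The genes described here are 34 Drosophila melanogaster genes that license, start and carry out DNA replication, chosen by symbol from a matrix of 17606 genes. They were followed in all 10 groups of the study through salivary gland, which endocycles in the larva, and wing, which divides there. All 34 symbols were found, and all 34 passed the filter on low values, which left 10176 genes for testing; a gene could pass it through the wing alone. The list holds 6 MCM helicase genes, 5 genes of the origin recognition complex, 4 licensing genes, 4 GINS genes, 5 genes of the sliding clamp and its loader, 2 other fork factors, 4 genes of nucleotide supply, 2 of chromatin assembly and the 2 S phase regulators CycE and E2f1.

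RNA was measured in 20 libraries, 2 for each group, around the start of metamorphosis, which the steroid hormone ecdysone and its receptor EcR control; times are hours from puparium formation. The EcRi groups were gland at -30 h and -6 h and wing at -30 h and -6 h. Their animals were yw/yw and carried Vg-GAL4, UAS-Flp and the Tub>>CD2>>GAL4 construct, with UAS-GFP over UAS-EcR-RNAi[104]. In such a line the Vg-GAL4 driver turns on the Flp recombinase, which removes a CD2 cassette so that GAL4 under a tubulin promoter drives GFP and the hairpin against EcR; the labels do not say which cells it reached. The WT groups were both tissues at each of -30 h, -6 h and +6 h, with the genotype +/+; +/+; +/+. They have none of these transgenes, so differences between the genotypes include differences between the lines. All animals were labelled female and kept at 25 °C, and each library pooled 60 or more wings or glands. Animals of the -30 h groups were dissected 72 h after hatching, those of the -6 h groups as wandering larvae, and those of the +6 h groups after staging as white prepupae.

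Before S phase the origin recognition complex and Cdc6 sit on replication origins and, with Cdt1 (double parked, dup, in flies), load the MCM helicase; geminin blocks Cdt1, so that an origin fires once in a cycle. Wing cells of the larva divide, with S phase and mitosis in turn, whereas salivary gland cells run endocycles, rounds of S phase without mitosis that make giant polytene chromosomes. The transcription factor E2f1 and Cyclin E drive entry into S phase in both kinds of cycle, and many replication genes are known targets of E2f1 in flies.

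Levels are given in scaled RPM, reads relative to library size corrected for composition, and changes as log2 differences of scaled RPM + 1, which understates those of low genes. Calls needed an adjusted p under 0.05 from limma (Benjamini-Hochberg over every gene tested) and a log2 difference of at least 1 in size, and "rose" and "fell" are used of called genes. Errors of log2 differences are standard errors. Nothing in the labels ties the 2 libraries of a group to separate animals, so p-values measure spread between libraries and not between animals. For each gene 1 spread was estimated over all 20 libraries and used in every comparison. A p-value can thus be too small where the compared groups spread more than the rest, and too large where they spread less. In such pools fewer cells of a type and less RNA per cell cannot be told apart.

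Libraries held 14942340 to 22623350 reads. One stood apart: replicate 2 of WT gland at -30 h had reads on 6356 genes, against 9414 to 11477 in the others, and 5 members (Orc5, Orc6, Psf1, RfC3 and Fen1) had no read there. Over the members the median size of the log2 difference between replicates was 1.10 in that group, against 0.094 to 0.40 in the other 9. Medians and most named changes that rest on it are therefore also given without that library. In WT gland at -6 h the glue genes, whose secretion fixes the pupa to its support, took 65.0% and 72.5% of reads. The members' median was then 18 and 15.5 reads, and it was 7.5 and 14 reads in WT gland at +6 h, against 139.5 or more in the libraries of the other 8 groups. EcR had 247 and 192 scaled RPM in EcRi gland, against 1319 and 1268 in WT gland at -6 h (-2.57 ± 0.14, adjusted p = 1.12e-08), whereas at -30 h it had 302 and 281 in EcRi gland, against 278 and 301 in WT gland (0.01 ± 0.14, adjusted p = 0.998). In wing EcR differed by -0.73 ± 0.14 at -30 h (adjusted p = 0.0125) and by -0.49 ± 0.14 at -6 h (adjusted p = 0.133), under the size for a call. In gland at -30 h the EcRi genotype thus rests on the label and not on EcR RNA. Wing markers summed to 139 to 233 scaled RPM in glands, against 1307 to 1720 in wings. Salivary gland markers summed to 2743 or more in glands and to 228 to 489 in wings, except WT wing at -6 h with 9282 and 12792 and at +6 h with 1279 and 1759. Fat body markers summed to 2457 to 22976 in glands, with Yp1 at 0 in 4 of the 5 gland groups, and to 24.0 to 2591 in wings.

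The members lie on 5 chromosome arms of dm6, with 9 on 2L, 10 on 2R, 4 on 3L, 7 on 3R and 4 on X. Mcm2 (FBgn0014861), a helicase subunit, spans chr3R:8264970-8267924 on the plus strand. RpA-70 (FBgn0010173), which coats single-stranded DNA, spans chr3R:8262120-8264451 on the minus strand, head to head with Mcm2 with 518 bases and no other gene between them. PCNA (FBgn0005655), the sliding clamp, spans chr2R:20261754-20262883, and RnrS (FBgn0011704), the small subunit of ribonucleotide reductase, spans chr2R:11983145-11985393, both on the minus strand. CycE (FBgn0010382) spans chr2L:15727581-15748150 and E2f1 (FBgn0011766) chr3R:21620304-21660871, both on the minus strand. Introns make up 15523 of the 20570 bases of CycE and 34117 of the 40568 bases of E2f1, and levels per length are over the whole span. Another gene overlaps 17 of the 34 spans, over more than 25% of the span in 4 of them, and whether counting used strand is not given in the sources used here. Cdc6 (FBgn0035918, chr3L:8631509-8634069, minus strand) lies wholly within Zasp66, a muscle gene with 0.109 to 10.4 scaled RPM. The antisense genes over dUTPase (100% of its span) and Mcm7 (81.2%) had at most 0.639 and 0.539 scaled RPM, and CG17841, over 33.1% of Psf3, had 24.6 to 105 scaled RPM.

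In dividing wing the members covered a wide range. In WT wing at -30 h the mean per kilobase of gene span ran from 2.66 ± 0.246 scaled RPKM for the GINS gene Psf2 to 146 ± 11.6 for dUTPase, which keeps uracil out of the nucleotide pool (SD, n = 2). PCNA followed at 76.7 ± 0.573 and geminin at 63.5 ± 4.47 scaled RPKM. The 6 MCM genes, whose products form 1 ring, lay between 15.1 ± 0.915 for Mcm2 and 31.9 ± 4.61 for Mcm6. Over the groups the members' median was 4.94 scaled RPKM at -30 h and 4.75 at -6 h in EcRi gland. WT gland had medians of 10.1 at -30 h, 1.61 at -6 h and 0.647 at +6 h. EcRi wing had 13.9 at -30 h and 8.46 at -6 h, and WT wing 16.2, 10.2 and 3.29 scaled RPKM at -30 h, -6 h and +6 h. The order of the medians thus ran from WT gland at +6 h, the lowest group, to WT wing at -30 h, the highest.

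**Figure D1:**
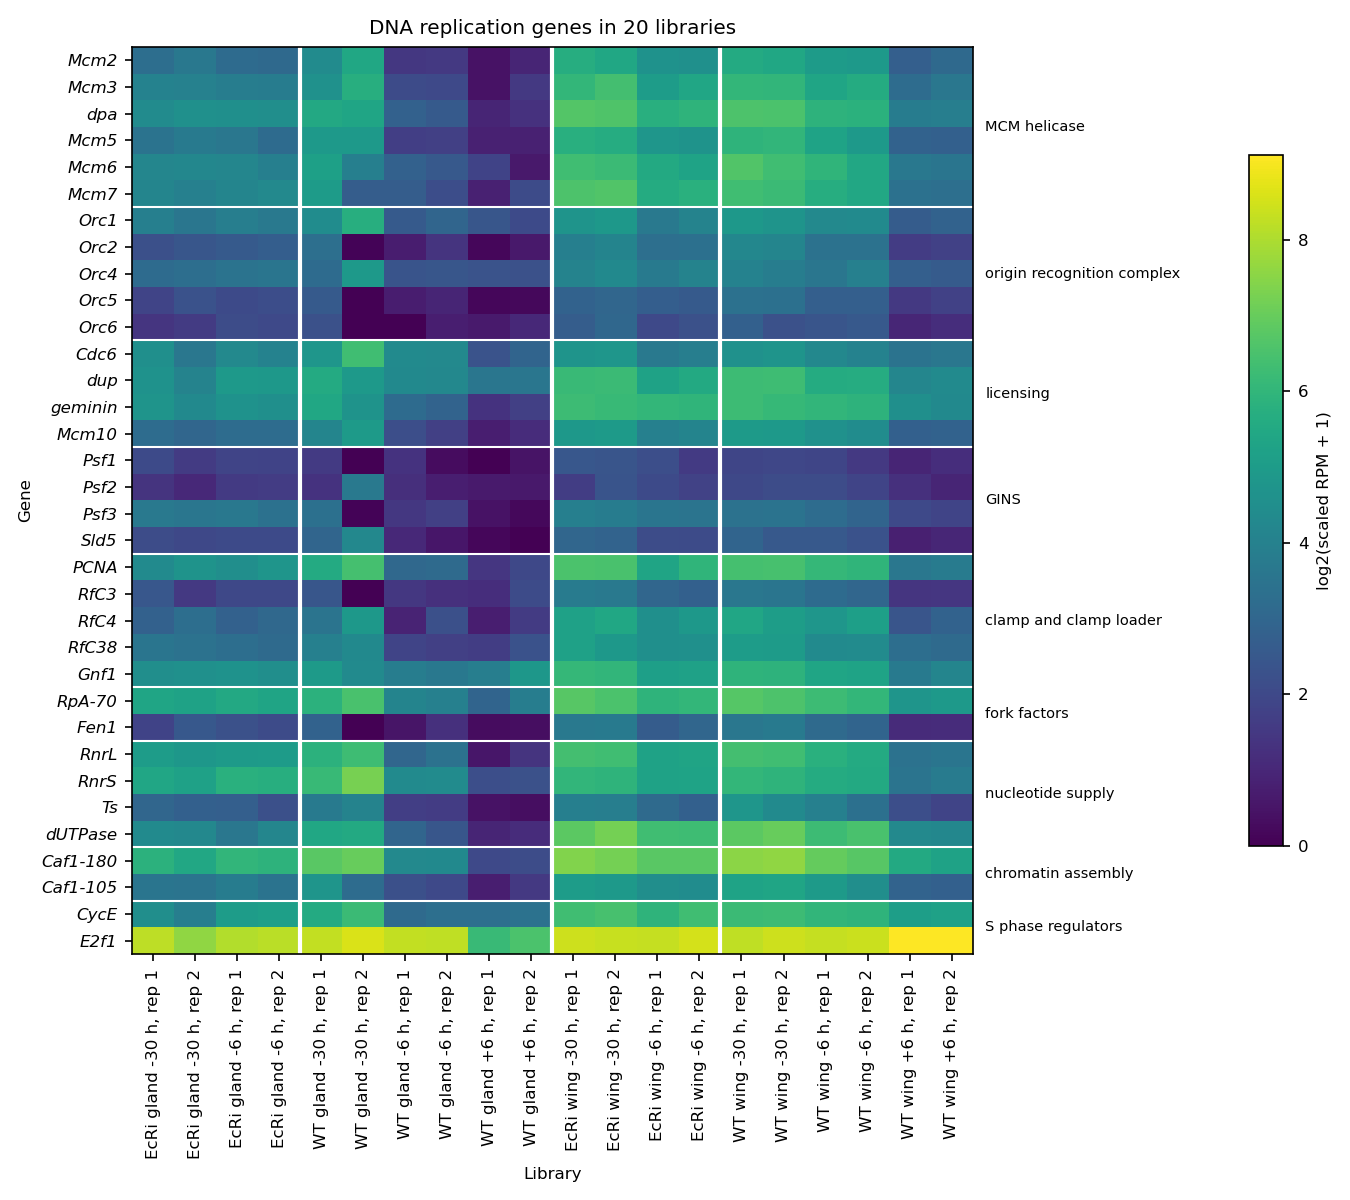
Level of each of the 34 genes (vertical axis, grouped by role) in each of the 20 libraries (horizontal axis, gland left of wing and EcRi left of WT), as log2(scaled RPM + 1) by colour. The lowest columns are WT gland at -6 h and +6 h, and in WT gland at -30 h replicate 2 differs from replicate 1.

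Most members had alike profiles over the 10 groups. Pearson's r between a member and the mean of the other 33 was 0.996 for dpa (the fly Mcm4), 0.994 for Mcm3 and 0.990 for PCNA. It was lowest for E2f1 at 0.549, Cdc6 at 0.657 and RfC3, a clamp loader subunit, at 0.752. Of all other genes with at least 5 scaled RPM in their highest group, the 12 most like the members' mean were CG5776 (r = 0.996), l(2)dtl (0.994), Zfrp8 (0.993), RPA3 (0.993), SNRPG (0.990), DNAlig1 (0.989), RanGAP (0.989), Nup43 (0.989), DNApol-alpha180 (0.988), His2Av (0.987), rig (0.986) and mus304 (0.984). RPA3 (single-strand binding), DNAlig1 (a DNA ligase) and DNApol-alpha180 (the polymerase that starts new strands) are in a separate list of other replication genes, and l(2)dtl, an adaptor for the degradation of Cdt1, is in a list of regulators of G1 and the endocycle. These values describe 10 group means that share tissues and times.

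The 3 members least like the others are given by library, since for Cdc6 and RfC3 the library that stood apart lay far from its replicate. E2f1 had 311 and 384 scaled RPM at -30 h, 308 and 301 at -6 h and 72.2 and 91.3 at +6 h in WT gland, and 303 and 341, 319.9 and 332 and 555 and 555 in WT wing at the same times. Its lowest group was thus WT gland at +6 h and its highest WT wing at +6 h, the same time in the other tissue. Cdc6, which helps to load the helicase, had 26.8 and 78.6 scaled RPM at -30 h, 19.5 and 18.6 at -6 h and 4.03 and 6.6 at +6 h in WT gland, and 23.7 and 25.4, 18.3 and 15.3 and 10.2 and 11.3 in WT wing. Apart from 78.6 in the library that stood apart, its values before pupariation lay between 15.3 and 26.8 in both tissues of WT. RfC3 had 4.37 and 0 scaled RPM at -30 h, 1.76 and 1.38 at -6 h and 1.27 and 3.23 at +6 h in WT gland, and 11.1 and 10.8, 8.04 and 6.96 and 1.67 and 1.69 in WT wing. Its libraries of WT gland at -30 h lay at opposite ends of its range in WT gland, with no read in the library that stood apart.

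The gland had less RNA of many replication genes than the wing, in libraries where neither S phase nor division was measured. In WT 13 members were lower in gland at -30 h, 29 at -6 h and 22 at +6 h, and none was higher. The median log2 difference was -0.94, -2.26 and -1.55 at these times. Of all genes tested 18.9% were lower and 12.1% higher at -30 h, 25.3% lower and 19.2% higher at -6 h, and 30.8% lower and 16.5% higher at +6 h, with medians of -0.14, -0.09 and -0.30.

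At -30 h in WT 4 of the 6 helicase genes were lower in gland, and 27 of the 34 members had libraries that did not overlap between the tissues, as did 58.8% of all genes tested. Mcm2 had 20.1 and 41.8 scaled RPM in WT gland, against 46.5 and 42.7 in WT wing (-0.60 ± 0.30, adjusted p = 0.123). Its gland libraries were both below the wing libraries, and the difference was not called. Without the library that stood apart the difference was called at -1.11 (adjusted p = 0.00189). Its fellow subunit dpa was lower, with 44.6 and 39.6 scaled RPM in gland, against 93.6 and 92.3 in wing (-1.13 ± 0.17, adjusted p = 9.21e-05; -1.04 without that library). Nucleotide supply was split. RnrS had 70.6 and 152 scaled RPM in gland, against 65.2 and 60.4 in wing (0.72 ± 0.25, adjusted p = 0.0355), and both gland libraries were above the wing, by less than the size for a call; without that library the difference was 0.17. dUTPase was lower, with 42.6 and 45.3 scaled RPM in gland, against 113 and 127 in wing (-1.43 ± 0.23, adjusted p = 1.49e-04; -1.47 without that library). Without replicate 2 of WT gland at -30 h the members' median was -0.79, against 0.00 over all genes tested, and several of the 13 calls were lost. Without replicate 1 of that group members were called in both directions, with Cdc6, Psf2, Sld5 and RnrS higher in gland. A fit of these 2 groups alone called 2 (dpa and dUTPase). The deposited RPKM without further scaling gave 27, a setting that moved the median over all genes in 16 of 19 comparisons.

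At -6 h in WT no member overlapped between the tissues, 33 of the 34 with gland below wing; 81.2% of all genes tested did not overlap either. Mcm2 had 1.76 and 1.84 scaled RPM in WT gland, against 31.3 and 28.5 in WT wing (-3.46 ± 0.30, adjusted p = 2.57e-07). The other 5 MCM genes differed by -3.43 (Mcm3) to -3.03 (Mcm6). All 5 genes of the origin recognition complex were lower as well, by less on this scale. Orc2, Orc5 and Orc6 had means of 1.13, 0.789 and 0.345 scaled RPM in gland, where adding 1 understates a difference. Their differences are thus not ranked against those of the MCM genes. Orc1, its largest subunit, had 5.05 and 6.9 scaled RPM in gland, against 18.6 and 19.7 in wing (-1.54 ± 0.34, adjusted p = 0.00141). Orc2 lost its call without replicate 1 of WT gland and Orc4 without replicate 2 of WT wing, both at -6 h. PCNA had 7.46 and 7.82 scaled RPM in gland, against 65.7 and 60.9 in wing (-2.89 ± 0.28, adjusted p = 7.4e-07). Salivary gland markers summed to 9282 and 12792 scaled RPM in these WT wing libraries, and their part in the result was not tested. The 5 members not called were Cdc6, Psf1, Psf2, Psf3 and E2f1. Cdc6 was the one gene whose gland libraries were the higher, with 19.5 and 18.6 scaled RPM in gland, against 18.3 and 15.3 in wing (0.18 ± 0.40, adjusted p = 0.742).

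At +6 h in WT all 6 MCM genes, all 4 genes of nucleotide supply and both chromatin assembly genes were lower in gland. RnrL, the large subunit of ribonucleotide reductase, had 0.46 and 1.62 scaled RPM in gland, against 9.86 and 10.8 in wing (-2.53 ± 0.25, adjusted p = 7.92e-07). The clamp loader genes Gnf1 and RfC3 and the origin gene Orc6 overlapped between the tissues. Gnf1 had 14.03 and 27.1 scaled RPM in gland, against 12.6 and 16.7 in wing (0.41 ± 0.26, adjusted p = 0.204). E2f1, uncalled at the earlier times, was lower in gland, with 72.2 and 91.3 scaled RPM in gland, against 555 and 555 in wing (-2.76 ± 0.18, adjusted p = 1.49e-08). The calls of 7 members, among them Mcm7 and RpA-70, were lost without replicate 1 of WT gland at +6 h.

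In EcRi more members were called at the earlier time, a difference between times that was not tested, nor was the gap in EcRi tested against that in WT. At -30 h 23 members were lower in gland, with a median of -1.56, against 15.1% of all genes lower and 18% higher, and no member overlapped between the tissues, as was so for 79.4% of all genes. At -6 h 12 were lower, with a median of -0.67, against 15.5% of all genes lower and 16.6% higher. None was higher at either time. Mcm2 had 8.81 and 11.5 scaled RPM in EcRi gland, against 50.6 and 41.8 in EcRi wing at -30 h (-2.09 ± 0.30, adjusted p = 5.41e-05). At -6 h it had 8.15 and 7.58 in EcRi gland, against 24.2 and 23.1 in EcRi wing (-1.48 ± 0.30, adjusted p = 0.00101). Gland values were thus close at both times while wing values were lower at -6 h. RnrS, in contrast to the helicase, had 54.1 and 51.1 scaled RPM in EcRi gland, against 37.3 and 38.3 in EcRi wing at -6 h (0.47 ± 0.25, adjusted p = 0.16). Without replicate 2 of EcRi wing at -6 h fewer members were lower at that time. The deposited RPKM without further scaling gave 22, a setting that moved the median over all genes in 16 of 19 comparisons.

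**Figure D2:**
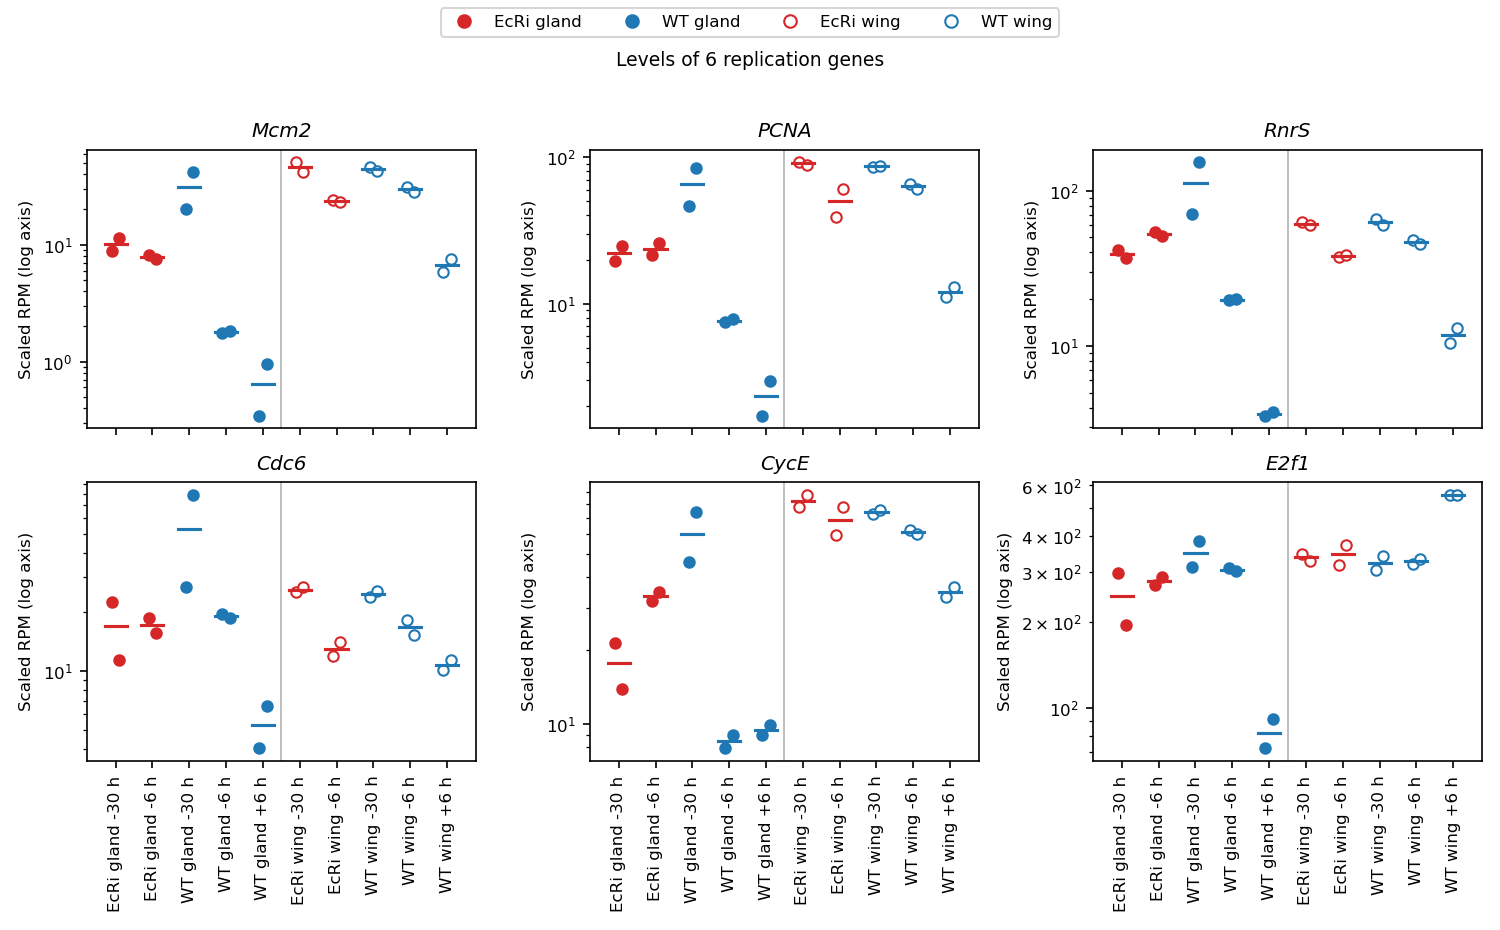
Scaled RPM (log axis) of Mcm2, PCNA, RnrS, Cdc6, CycE and E2f1 in each group; points are single libraries and short lines means of 2, with gland filled and left of the grey line, wing open, EcRi red and WT blue. In WT gland Mcm2, PCNA and RnrS are lower at -6 h than at -30 h, and E2f1 is lower at +6 h alone.

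Most genes of mitosis were lower in gland too, with no test between the lists. Of 38 tested 34 were lower in WT gland than in WT wing at -30 h, 34 at -6 h and 31 at +6 h, with medians of -3.67, -3.65 and -2.10; cana, a kinesin of the kinetochore, was higher at -6 h and +6 h. Without the library that stood apart the median at -30 h was -3.46, against 0.00 over all genes tested. In EcRi 35 were lower at -30 h and 35 at -6 h, with medians of -3.39 and -3.37. CycB, a mitotic cyclin, had 2.85 and 2.76 scaled RPM in WT gland, against 143 and 101 in WT wing at -6 h. Summed mitosis levels were 290 to 467 scaled RPM in glands and 770 to 3448 in wings. A list of other replication genes, 31 tested of 32, is described beside the members, with 11, 25 and 24 lower in WT gland at -30 h, -6 h and +6 h and medians of -0.74, -2.31 and -1.74. Without that library their median at -30 h was -0.60. In EcRi 18 of them were lower at -30 h and 8 at -6 h. Ssrp, a histone chaperone subunit, differed most at -6 h in WT, with 9.0 and 7.82 scaled RPM in gland, against 128 and 137 in wing (-3.83 ± 0.18, adjusted p = 7.62e-10).

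**Figure D3:**
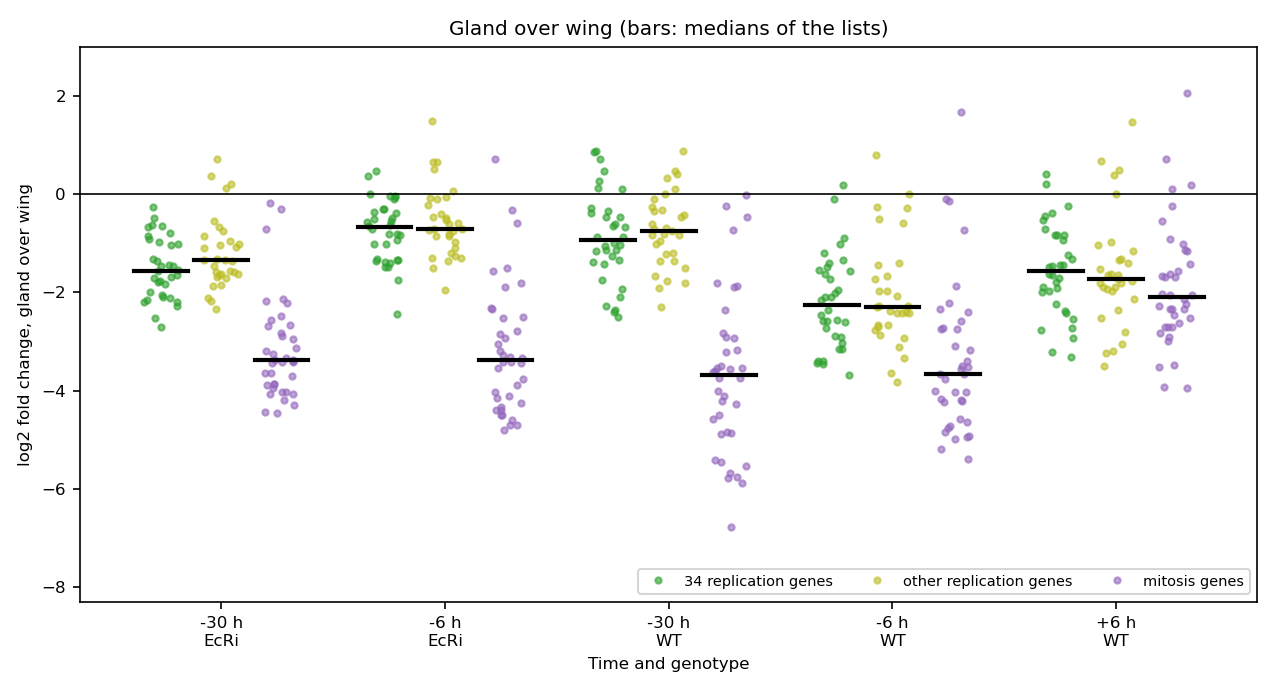
Log2 fold change of gland over wing (vertical axis) for 5 settings of genotype and time (horizontal axis), 1 point a gene, for the 34 replication genes, other replication genes and mitosis genes; black bars are medians. The members' medians lie between -0.67 and -2.26 and the mitosis medians between -2.10 and -3.67.

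Late in larval life most replication genes fell in WT gland. Between -30 h and -6 h 24 members fell and none rose, with a median log2 change of -2.07, and 27 of 34 had libraries that did not overlap, as did 53.4% of all genes tested. Of all genes tested 16.7% fell and 18.1% rose, with a median of 0.06. Without replicate 2 of WT gland at -30 h the members' median was -2.14, against -0.08 over all genes tested. Without replicate 1 of that group most members still fell, and Psf3 and RfC3 rose. A fit of these 2 groups alone called 11. Fat body markers, 7 of 8 with reads and Yp1 at 0, summed to 7417 and 8133 scaled RPM at -6 h, against 4021 and 7586 at -30 h. Blood cell markers, all 6 with reads, summed to 38.7 and 62.1 scaled RPM at -6 h, against 249 and 422 at -30 h. Most of these sums came from Col4a1, a collagen of basement membrane that fat body also makes, with 44.8 and 25.1 at -6 h, against 409.7 and 238 at -30 h, whereas Hml, a hemocyte gene, had 5.7 and 3.91 at -6 h, against 2.52 and 0 at -30 h. The part of either list in the result was not tested.

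All 6 MCM genes fell. Mcm2 had 1.76 and 1.84 scaled RPM at -6 h, against 20.1 and 41.8 at -30 h (-3.42 ± 0.30, adjusted p = 5.22e-07; -2.91 without the library that stood apart). Mcm5 had 2.19 and 2.3 scaled RPM at -6 h, against 29.4 and 29.5 at -30 h (-3.23 ± 0.20, adjusted p = 2.26e-08). Neither overlapped between the times, and Mcm5 was nearly the same in both libraries of -30 h. Mcm7 changed least of the 6, with 5.48 and 3.45 scaled RPM at -6 h, against 31.1 and 5.52 at -30 h (-1.43 ± 0.54, adjusted p = 0.0439). Its low value at -30 h came from the library that stood apart, without which the change was -2.58, and its call was lost without any 1 of the other 3 libraries.

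In the origin recognition complex Orc1 and Orc4 fell. Orc1 had 5.05 and 6.9 scaled RPM at -6 h, against 20.4 and 51.3 at -30 h (-2.28 ± 0.34, adjusted p = 8.11e-05; -1.63 without the library that stood apart), with no overlap. Orc2, Orc5 and Orc6 were not called, and each had 0 or 1 read in the library that stood apart. Without it they changed by -2.26, -1.74 and -1.89 and were called, whereas Orc4, at -0.80, was not. Of the licensing genes geminin fell, with 8.12 and 6.44 scaled RPM at -6 h, against 42.2 and 24.6 at -30 h (-2.01 ± 0.24, adjusted p = 9.31e-06; -2.39 without that library). Mcm10, which helps to start the fork, fell by 2.62 (-2.21 without it). Cdt1, the protein that geminin blocks, is encoded by dup, which changed less, with 18.9 and 18.2 scaled RPM at -6 h, against 46.7 and 29.9 at -30 h (-0.98 ± 0.21, adjusted p = 0.00181), just under the size for a call, and was called at -1.29 without that library. Cdc6 fell by 1.23, but its change was -0.47 without the library that stood apart (adjusted p = 0.239), and the call was also lost without either library of -6 h.

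The GINS complex travels with the helicase, and of its 4 genes Sld5 and Psf2 fell, with changes of -2.81 ± 0.35 and -1.53 ± 0.53. Sld5 was at -2.16 and Psf2 at -0.35 without the library that stood apart, and the call of Psf2 was also lost without either library of -6 h. PCNA fell, with 7.46 and 7.82 scaled RPM at -6 h, against 46.6 and 84.9 at -30 h (-2.89 ± 0.28, adjusted p = 1.38e-06; -2.46 without that library). Of its loader RfC4 and RfC38 fell by 2.62 and 2.35 (-1.95 and -2.18 without it), and Gnf1 and RfC3 were not called. All 4 genes of nucleotide supply fell, from -2.85 for RnrL to -2.28 for Ts, the thymidylate synthase, and without that library from -2.75 for dUTPase to -1.78 for RnrS. RnrL had 7.02 and 9.89 scaled RPM at -6 h, against 57.2 and 76.99 at -30 h (adjusted p = 5.09e-07). Both chromatin assembly genes fell. Cyclin E RNA fell with them: CycE had 7.9 and 8.97 scaled RPM at -6 h, against 46.3 and 73.99 at -30 h (-2.66 ± 0.23, adjusted p = 4.88e-07; -2.33 without that library).

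E2f1 was not called in this interval. It had 308 and 301 scaled RPM at -6 h, against 311 and 384 at -30 h (-0.18 ± 0.18, adjusted p = 0.463), and the change was -0.03 without the library that stood apart. Between -6 h and +6 h it fell, with 72.2 and 91.3 scaled RPM at +6 h, against 308 and 301 at -6 h (-1.89 ± 0.18, adjusted p = 1.15e-06).

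Over pupariation, between -6 h and +6 h, 12 members fell in WT gland and none rose, with a median of -0.82, against 16.3% of all genes that fell and 13.7% that rose. All 4 genes of nucleotide supply fell again, as did Mcm3, dpa, Mcm6, Cdc6, geminin, PCNA, the large subunit gene of chromatin assembly factor 1 and E2f1. RnrS had 3.57 and 3.77 scaled RPM at +6 h, against 19.7 and 20.02 at -6 h (-2.16 ± 0.25, adjusted p = 9.54e-06). RnrL had 0.46 and 1.62 scaled RPM at +6 h, against 7.02 and 9.89 at -6 h (-2.26 ± 0.25, adjusted p = 4.89e-06). Cdc6 had 4.03 and 6.6 scaled RPM at +6 h, against 19.5 and 18.6 at -6 h (-1.7 ± 0.40, adjusted p = 0.0033). None of these overlapped between the times, though the calls of Cdc6, Mcm3 and PCNA were lost without replicate 1 of WT gland at +6 h, and that of Mcm6 without replicate 2. CycE had 8.97 and 9.83 scaled RPM at +6 h, against 7.9 and 8.97 at -6 h (0.14 ± 0.23, adjusted p = 0.686), so that its libraries met. A pseudocount of 4 gave 5 members that fell and voom weights 6.

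The other lists are given for WT gland between -30 h and -6 h beside the 16.7% of all genes that fell and 18.1% that rose, with no test between lists. Of 31 other replication genes 24 fell and none rose, with a median of -1.98. Without the library that stood apart their median was -2.14, against -0.08 over all genes tested. RPA2, of the single-strand binding complex, had 1.32 and 1.38 scaled RPM at -6 h, against 24.3 and 19.02 at -30 h (-3.26 ± 0.32, adjusted p = 1.77e-06; -3.43 without that library). Of 38 mitosis genes 3 rose and 7 fell, with a median of 0.03, shares close to or under those of all genes. Without that library their median was -0.43, below the -0.08 of all genes tested, so this closeness rests on that library. String (stg), the phosphatase that starts mitosis, rose, with 95.9 and 163 scaled RPM at -6 h, against 10.4 and 0.315 at -30 h (5.03 ± 0.67, adjusted p = 2.73e-05), and its libraries of -30 h differed widely; without the lower one the change was 3.47. Of 20 regulators of G1 and the endocycle tested 7 fell and 1 rose, and without that library their median was -0.88. Myc, which drives growth of endocycling cells, had 27.4 and 24.9 scaled RPM at -6 h, against 275 and 167 at -30 h (-2.99 ± 0.24, adjusted p = 2.16e-07; -3.35 without that library).

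In WT wing most replication genes fell between -6 h and +6 h. Between -30 h and -6 h no member was called by limma, although 33 of 34 changes were negative, with a median of -0.53, and 9 had an unadjusted p under 0.05. Voom and the authors' deposited table at the same thresholds called none either, and of all genes 2.24% fell and 3.07% rose. Mcm5 had 37.95 and 28.8 scaled RPM at -6 h, against 59.8 and 63.2 at -30 h (-0.88 ± 0.20, adjusted p = 0.0156), below the earlier libraries but under the size for a call. The 95% interval excluded a 2-fold fall for 5 of the 34, and 1 member, Mcm5, was called without replicate 1 of WT wing at -6 h.

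Between -6 h and +6 h 24 members fell in WT wing and none rose, against 6.06% of all genes that fell and 10.6% that rose, with a median of -1.60 and no overlap between the times for any of the 34, as was so for 71% of all genes. Salivary gland markers summed to 1279 and 1759 scaled RPM at +6 h, against 9282 and 12792 at -6 h, and their part in the result was not tested. All 6 MCM genes fell, by 2.01 (Mcm2) to 2.26 (Mcm5) on the log2 scale. Mcm2 had 5.8 and 7.58 scaled RPM at +6 h, against 31.3 and 28.5 at -6 h (-2.01 ± 0.30, adjusted p = 1.74e-04). PCNA had 11.2 and 12.9 scaled RPM at +6 h, against 65.7 and 60.9 at -6 h (-2.3 ± 0.28, adjusted p = 2.65e-05). All 5 genes of the clamp and its loader fell, with both fork factors, all 4 genes of nucleotide supply and both chromatin assembly genes. The calls of RfC3 and Fen1 were lost without any 1 of the 4 libraries. Their spread was estimated over all libraries, with no read of either in the library of WT gland that stood apart. A fit of these 2 groups alone called 29 members, all lower at +6 h. CycE had 33.3 and 36.4 scaled RPM at +6 h, against 62.6 and 60.5 at -6 h (-0.80 ± 0.23, adjusted p = 0.0196), under the size for a call. E2f1 had more RNA at the later time, with 555 and 555 scaled RPM at +6 h, against 319.9 and 332 at -6 h (0.77 ± 0.18, adjusted p = 0.00563), also under that size. Of the mitosis genes 30 of 38 fell in the same interval, with a median of -1.86, and of the other replication genes 20 of 31.

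Of the 24 members that fell in WT gland before pupariation and the 24 that fell in WT wing over pupariation 20 were shared, 83.3% of each list. Both lists hold 24 of the same 34 members, so their sizes alone make a wide overlap, which was not tested. Orc4, Psf2, CycE and Cdc6 were called in the gland interval and not in the wing one, and dup, RfC3, Gnf1 and Fen1 the other way round, which is no test of a difference. Within 1 interval the tissues were tested against each other. Between -30 h and -6 h the gland change minus the wing change was lower for 18 members and higher for none, with a median of -1.58, against 15% of all genes lower and 13.6% higher. It was -2.86 ± 0.42 for Mcm2 (adjusted p = 1.67e-04), -2.44 ± 0.39 for PCNA (adjusted p = 3.40e-04) and -2.39 ± 0.33 for CycE (adjusted p = 8.48e-05). Without replicate 2 of WT gland at -30 h the members' median was -1.61, against -0.11 over all genes tested. It was then -2.35 for Mcm2, -2.01 for PCNA and -2.05 for CycE. Between -6 h and +6 h the difference was higher for 5 members (Mcm2, Mcm5, RfC4, RfC38 and Gnf1), against 10.2% of all genes, and lower for E2f1, against 16.8%, so that the members' share was near or under that of all genes. It was 1.97 ± 0.37 for Gnf1 (adjusted p = 9.47e-04) and -2.66 ± 0.25 for E2f1 (adjusted p = 2.53e-06). Of the 5, Mcm2, Mcm5, RfC4 and RfC38 had means of 1.80 to 2.47 scaled RPM in WT gland at -6 h. At such levels adding 1 limits the fall that the gland can show. The calls of Mcm2 and RfC4 were lost without most single libraries, and without replicate 1 of WT gland at +6 h more members were higher.

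In EcRi gland no such fall was called. Between -30 h and -6 h no member was called by limma, 2 (CycE and dup) had an unadjusted p under 0.05, and voom and the authors' deposited table called none, against 1.75% of all genes that fell and 2.65% that rose. Fat body markers summed to 5760 and 9552 scaled RPM at -6 h, against 15724 and 22976 at -30 h, and their part in the result was not tested. The median change was 0.06, with a range of -0.43 (dUTPase) to 0.91 (CycE). The 95% intervals excluded a 2-fold fall for 25 of the 34 and a 2-fold rise for 23. Mcm5 had 11.1 and 8.13 scaled RPM at -6 h, against 10.05 and 12.2 at -30 h (-0.20 ± 0.20, adjusted p = 0.757). PCNA had 21.4 and 25.8 scaled RPM at -6 h, against 19.6 and 24.9 at -30 h (0.09 ± 0.28, adjusted p = 0.977). Both overlapped between the times. CycE had 32.1 and 34.8 scaled RPM at -6 h, against 21.6 and 13.9 at -30 h (0.91 ± 0.23, adjusted p = 0.0274), above the earlier libraries but under the size for a call. Without replicate 1 of EcRi gland at -30 h 1 member, CycE, was called higher.

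**Figure D4:**
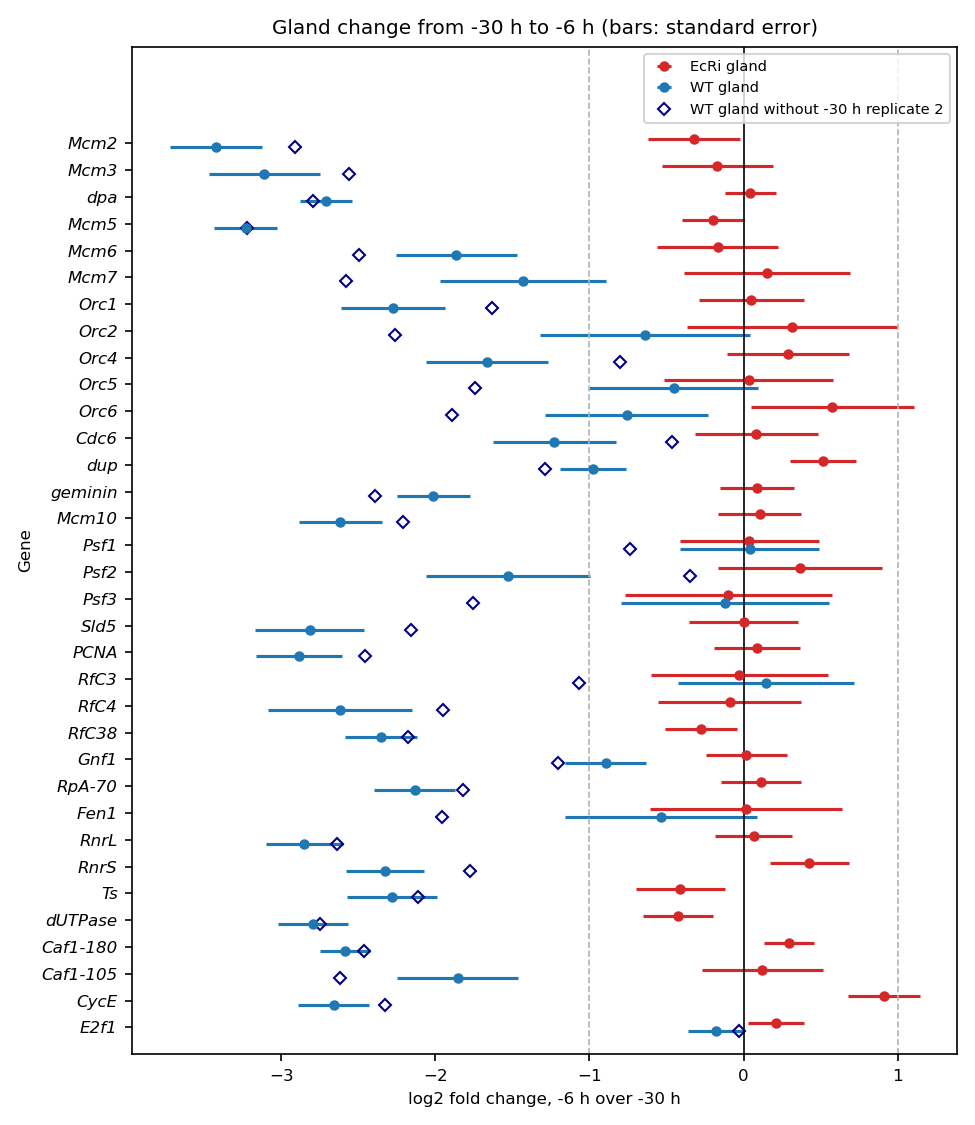
Log2 fold change of -6 h over -30 h (horizontal axis) for each gene in EcRi gland (red) and WT gland (blue), with standard errors as bars; open diamonds give WT gland without replicate 2 of -30 h, and dashed lines mark a 2-fold change. The EcRi points lie between -0.43 and 0.91, and 24 of the 34 WT points are called below -1.

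The change in EcRi gland minus that in WT gland was higher for 22 members and lower for none, with a median of 2.02, against 14.3% of all genes higher and 12.3% lower. It was 3.57 ± 0.33 for CycE (adjusted p = 2.9e-06), 3.1 ± 0.42 for Mcm2 (adjusted p = 8.89e-05), 2.97 ± 0.39 for PCNA (adjusted p = 7.06e-05) and 2.91 ± 0.35 for RnrL (adjusted p = 3.04e-05). For E2f1 it was 0.39 ± 0.25 (adjusted p = 0.275). Without replicate 2 of WT gland at -30 h the members' median was 2.18, against 0.09 over all genes tested. It was then 3.24 for CycE, 2.59 for Mcm2, 2.55 for PCNA and 2.7 for RnrL. Voom weights called 14 members, as did a fit of these 4 groups alone. Blood cell markers summed to 396 to 534 scaled RPM at -6 h and 464 to 622 at -30 h in EcRi gland, against 38.7 to 62.1 at -6 h and 249 to 422 at -30 h in WT gland. Most of the sums in WT gland, and at -6 h in EcRi gland, came from Col4a1, which fat body also makes. The hemocyte gene Hml overlapped between the genotypes at -6 h. The part of these markers in the result was not tested.

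At the start of the interval a share of the members were lower in EcRi gland than in WT gland. At -30 h 14 members were lower in EcRi gland and none higher, with a median of -0.92, against 3.38% of all genes lower and 10.2% higher. Mcm5 had 10.05 and 12.2 scaled RPM in EcRi gland, against 29.4 and 29.5 in WT gland (-1.33 ± 0.20, adjusted p = 5.48e-04; -1.33 without replicate 2 of WT gland). CycE had 21.6 and 13.9 scaled RPM in EcRi gland, against 46.3 and 73.99 in WT gland (-1.7 ± 0.23, adjusted p = 2.21e-04; -1.37 without it). EcR RNA itself was not lower in the gland labelled EcRi at this time, as given above. All 4 genes of nucleotide supply were lower, from -1.39 for RnrS to -1.02 for Ts. Fat body markers, 7 of 8 with reads and Yp1 at 0, summed to 15724 and 22976 scaled RPM in EcRi gland, against 4021 and 7586 in WT gland. Blood cell markers summed to 464 and 622 in EcRi gland, against 249 and 422 in WT gland, where most of the sum came from Col4a1, which fat body also makes. The part of either list in the result was not tested. Without replicate 2 of WT gland the members' median was -0.85, against 0 over all genes tested. Of the 14 called members Mcm2, Mcm3, Orc1, Cdc6, Sld5, RnrL, RnrS and Ts were then under the size for a call. Without replicate 1 of WT gland members were called in both directions, and without replicate 2 of EcRi gland fewer were lower. A fit of these 2 groups alone called 0, where the authors' deposited table has 13 lower past the same thresholds.

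At the end of the interval most members were higher in EcRi gland than in WT gland. At -6 h 23 members were higher in EcRi gland and none lower, with a median of 1.37, against 17.2% of all genes higher and 9.77% lower. No member overlapped between the genotypes, 32 with EcRi above WT and E2f1 and Cdc6 with EcRi below; 69.6% of all genes tested did not overlap either. Blood cell markers, all 6 with reads, summed to 396 and 534 scaled RPM in EcRi gland, against 38.7 and 62.1 in WT gland. Col4a1 took most of both, with 376 and 500.2 in EcRi gland, against 44.8 and 25.1 in WT gland, whereas Hml had 4.64 and 5.96 in EcRi gland, against 5.7 and 3.91 in WT gland. Fat body markers summed to 5760 and 9552 in EcRi gland, against 7417 and 8133 in WT gland. The part of either list in the result was not tested. All 6 MCM genes were higher, from 1.36 for Mcm6 to 1.81 for dpa. The fly Mcm4, dpa, had 22.5 and 21.7 scaled RPM in EcRi gland, against 6.14 and 5.06 in WT gland (1.81 ± 0.17, adjusted p = 1.36e-06). PCNA had 21.4 and 25.8 scaled RPM in EcRi gland, against 7.46 and 7.82 in WT gland (1.5 ± 0.28, adjusted p = 6.47e-04). CycE had 32.1 and 34.8 scaled RPM in EcRi gland, against 7.9 and 8.97 in WT gland (1.87 ± 0.23, adjusted p = 1.96e-05). E2f1 and Cdc6 were not called. E2f1 had 269 and 288 scaled RPM in EcRi gland, against 308 and 301 in WT gland (-0.13 ± 0.18, adjusted p = 0.632). Cdc6 had 18.6 and 15.5 scaled RPM in EcRi gland, against 19.5 and 18.6 in WT gland (-0.16 ± 0.40, adjusted p = 0.818), so that its libraries nearly touched. Past the same thresholds 17 members were higher in the authors' deposited table. Voom weights gave 4 and a pseudocount of 4 gave 15. Fewer were higher without replicate 2 of WT gland or without replicate 1 of EcRi gland, both at -6 h. The calls of Mcm6 and Mcm7 were among those lost.

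Of the other replication genes 21 of 31 were higher in EcRi gland than in WT gland at -6 h and none lower, with a median of 1.40. Ssrp had 48.4 and 50.9 scaled RPM in EcRi gland, against 9.0 and 7.82 in WT gland (2.43 ± 0.18, adjusted p = 1.27e-07). Of the regulators of G1 and the endocycle 5 of 20 were higher and none lower, against 17.2% of all genes higher and 9.77% lower. Myc had 146 and 169 scaled RPM in EcRi gland, against 27.4 and 24.9 in WT gland (2.54 ± 0.24, adjusted p = 1.49e-06). Of the 38 mitosis genes 3 were higher and 2 lower, shares under those of all genes, among the lower stg, with 4.75 and 8.55 scaled RPM in EcRi gland, against 95.9 and 163 in WT gland (-4.09 ± 0.67, adjusted p = 2.33e-04).

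In wing no member was called between the genotypes at either time by limma, voom or the authors' deposited table. At -30 h 1 member, Ts, had an unadjusted p under 0.05, the median was 0.04, and 20 of the 34 intervals of 95% lay within 2-fold in both directions; of all genes 1.34% were lower and 0.855% higher. At -6 h 1 member, again Ts, had an unadjusted p under 0.05, the median was -0.20, and 16 of the 34 intervals lay within 2-fold; of all genes 0.55% were lower and 1.23% higher. Mcm2 had 24.2 and 23.1 scaled RPM in EcRi wing, against 31.3 and 28.5 in WT wing at -6 h (-0.32 ± 0.30, adjusted p = 1), so that both EcRi libraries were below the WT ones, without a call.

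In EcRi wing 33 of 34 members had a negative change between -30 h and -6 h, with a median of -0.76. RnrL alone was called, with 37.4 and 38.8 scaled RPM at -6 h, against 84.1 and 79.1 at -30 h (-1.08 ± 0.25, adjusted p = 0.0226), against 0.54% of all genes that fell and 2.56% that rose. That call was lost without any 1 of the 4 libraries, and voom weights called 3 (Mcm3, RnrL and Ts). The change in EcRi wing minus that in WT wing was called for no member by limma or voom, and none had an unadjusted p under 0.05, against 0.147% of all genes lower and 0.717% higher. Its median was -0.18, and 11 of the 34 intervals of 95% lay within 2-fold.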

How the data were processed

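RNA of 20 libraries was analysed, grouped by tissue, genotype and time from the labels. The matrix that the authors deposited is titled as counts but holds RPKM, with the whole gene span, introns included, as length. Per the submitters' processing notes, STAR 2.7.3a, SAMtools 1.9, DESeq2 and dm6 were used; stranded counting is not given in the sources used here. The low values of each library are whole multiples of what 1 read is worth, which gave back the reads: all 64036 values of up to 20 reads came out whole within 0.1. The authors' deposited tables hold log2 fold changes and p-values from their DESeq2 fits, and their signs were turned to the direction used here.

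Reads per library size were corrected for composition with trimmed means of M values (TMM; trims of 30% and 5%). On log2(scaled RPM + 1), limma 3.58.1 in R 4.3.3 (trend and robust) estimated 1 mean per group from all 20 libraries, leaving 10 residual degrees of freedom. Genes needed 0.559 scaled RPM in 2 libraries and 15 reads in all. The fit was tested on simulated data, with the same spread setting for all genes and changes placed only in well-read genes. That simulation does not test low genes or a library that stands apart. The members and lists were chosen with earlier results of these data known. Every member could be named; of each other list at most 4 called genes in each direction of a comparison were named, by size of change, and by likeness of profile 12 genes. EcR was named as the check of the genotype. A value of 0 allows up to 3 reads, 0.133 to 0.201 RPM before the correction for composition, for counting error only. Scaled RPM divides these by a factor of 0.198 to 0.252 in WT gland at -6 h and 0.384 to 0.409 at +6 h. In scaled RPM the floor is thus several times higher there. The labels give no batch. Positions come from the BDGP6 annotation in coordinates of dm6, and sequences were not used here. The alternatives were another scaling, TMM without glue genes, other pseudocounts, no filter, the deposited RPKM, voom weights, no minimum size, a fit of the compared groups alone, blocking on replicate number and omitting 1 library at a time. Python 3.11.15, numpy 2.4.6, pandas 2.3.3 and matplotlib 3.10.9 were also used.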

Additional observations from a re-analysis of the deposited data

Results flagged for a closer look

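For 18 members the change between -30 h and -6 h differed between WT gland and WT wing by the test of the difference itself, in all 18 toward a lower value in gland, where 15% of all genes tested were lower and 13.6% higher. For 6 members the change between -6 h and +6 h differed between the same tissues, with 5 toward a higher value in gland and E2f1 toward a lower one. Of all genes 10.2% were higher and 16.8% lower, so that the members' share was near or under that of all genes. Of the 5, Mcm2, Mcm5, RfC4 and RfC38 had means of 1.80 to 2.47 scaled RPM in WT gland at -6 h, where adding 1 limits a fall. For 22 members the change between -30 h and -6 h differed between EcRi gland and WT gland, in all 22 toward a higher value in EcRi gland, where 14.3% of all genes were higher and 12.3% lower. The first and the last of these counts rest on WT gland at -30 h. Without its replicate 2 the members' medians were -1.61 and 2.18, against -0.11 and 0.09 over all genes tested.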

How the results depend on the processing

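No called change of a member turned its direction under any alternative run. Of 243 called values, 241 kept their call with a replicate block, 229 with median-of-ratios scaling, 243 with TMM without glue genes, 229 with a pseudocount of 0.25, 208 with a pseudocount of 4, 235 on the deposited RPKM, 230 without a filter, 171 with voom and 190 in fits of the compared groups alone; leaving out single libraries kept 988 of 1156. Differences between replicates 2 and 1 correlated above 0.1 in 30 of 45 pairs of groups (median 0.153, lowest -0.040, highest 0.426). A shared effect of the replicate number is thus possible. The labels do not say that a number marks a shared animal, batch or day, so the numbers were not taken as pairs. Fits of the compared groups alone called 11 members in WT gland between -30 h and -6 h, 2 in EcRi wing, 2 for gland against wing at -30 h in WT and 0 for EcRi against WT gland at -30 h, with 12 and 14 for the differences in change between tissues after -6 h and between genotypes in gland. A pseudocount of 4 gave 5 in WT gland between -6 h and +6 h, 15 for EcRi against WT gland at -6 h and 10 for the tissues after -6 h, and a pseudocount of 0.25 gave 0 in EcRi wing. Voom gave 6, 4 and 2 for these 3 comparisons, 3 in EcRi wing and 14 for the genotypes in gland. On the deposited RPKM, 2 members were called in WT wing between -30 h and -6 h, 2 in EcRi gland, 3 in EcRi wing, 27 and 22 for gland against wing at -30 h in WT and at -6 h in EcRi, 23 for EcRi against WT gland at -30 h and 18 for the tissues after -6 h. With no minimum size 3, 1 and 4 were called in WT wing, EcRi gland and EcRi wing between -30 h and -6 h, and median-of-ratios scaling gave 2 in EcRi wing. Where these differ from the counts in the report the cause was not tested. The median over all genes moved by more than 0.1 (log2) in 7 of 19 comparisons with median-of-ratios scaling, by -0.14 to 0.25, and in 16 of 19 on the deposited RPKM, by -2.54 to 2.04; TMM without glue genes moved it by -0.0015 to 0.0044, so that this setting changed almost nothing and tests little. Without single libraries the counts were 21 to 29 and 10 to 13 in WT gland in the 2 intervals, 0 to 1 and 20 to 22 in WT wing, 0 to 1 in EcRi gland and 0 to 0 in EcRi wing. For gland against wing they were 9 to 20, 27 to 28 and 16 to 20 in WT at -30 h, -6 h and +6 h, and 19 to 23 and 7 to 10 in EcRi. For EcRi against WT they were 9 to 26 and 14 to 18 in gland at -30 h and -6 h, and 0 to 0 in wing. For the differences in change they were 16 to 26 and 4 to 10 between tissues, 20 to 29 between genotypes in gland and 0 to 0 in wing. Shares over all genes in fits without single libraries are not given here, so these counts show only how far the calls moved. At 7.5 to 18 reads in the median, members in WT gland from -6 h on are limited by depth.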
